A study of Parasteatoda tepidariorum with 2 samples.

Results

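The 150 genes described here had fewer RNA molecules in nuclei of stage-7 embryos of the house spider *Parasteatoda tepidariorum* than in nuclei of late stage-5 embryos. They were chosen by the measured values themselves. Of the 7293 genes that had 500 or more molecules at late stage 5 and were listed at both stages, they are the 150 with the highest ratio of the late stage-5 level to the stage-7 level, each level being molecules of the gene per 10000 molecules summed over all barcodes, plus 0.01. In all, 19692 genes were listed for stage-7 nuclei and 19099 for late stage-5 nuclei. Since the ratio chose the genes, their levels in these nuclei are given as a description, with no test.

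Stage-7_nucleus is 1 library of nuclei from 20 whole wild-type embryos, stage-7_cell is 1 library of dissociated cells from 15 whole wild-type embryos, and late stage-5_nucleus is 1 library of nuclei from an earlier experiment that the authors processed again. Stage 7 is the nascent germ band, in which stripes of gene expression mark the future segments. Late stage 5 is the germ disc, in which expression is arranged in rings and the rim of the disc becomes anterior. Each experiment used a single egg sac, and the cells and nuclei of stage 7 came from different ones. From stained siblings, the authors judged the embryos of the cell library slightly younger than those of the stage-7 nucleus library. The stage, the egg sac and the library preparation cannot be told apart, and with 1 library each there was no replicate check on any difference.

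Many regulators of early patterning are used briefly. Transcription factors such as Otd (head), Bar (homeobox), Distal-less (limb) and Paired-type (Pax3/7) proteins are switched on in broad domains that are later cut down or replaced by stripes. Notch is a receptor that neighbouring cells activate through Delta ligands, with Hes proteins as its classic targets, and in spiders it takes part in setting up the germ layers and the segments. Wnt ligands act between cells and are held in check by secreted and intracellular modulators.

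The filtered tables held 68754756 molecules in 6239 stage-7 nuclei (median 10452 per nucleus), 8640142 in 865 stage-7 cells (median 9159) and 26804290 in 4820 late stage-5 nuclei (median 5413). Between the libraries, 33 barcodes were shared by stage-7 and late stage-5 nuclei, 6 by stage-7 cells and stage-7 nuclei, and 5 by cells and late stage-5 nuclei. Without these barcodes, 149 of the 150 genes were again among the 150 highest ratios. Molecules of several cell type markers were found in each library. *Pt-ets4* had 0.194 molecules per 10000 in stage-7 nuclei, 0.0336 in stage-7 cells and 0.503 in late stage-5 nuclei. The study lists it as a marker of the cumulus mesenchymal cells for late stage 5 only. *Pt-twist*, a mesoderm regulator, had 0.385 in stage-7 nuclei, 0.622 in stage-7 cells and 0.0787 in late stage-5 nuclei. Levels of most of the 7293 genes were lower at stage 7, with a median log2 of stage 7 over late stage 5 of -0.53, and changes relative to this median are smaller by that amount.

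The log2 of stage 7 over late stage 5 lay between -6.44 and -1.79 over the 150 genes, with a median of -2.10, and between -5.92 and -1.27 relative to the median of all genes. All 150 were at least 2-fold lower at stage 7, as were 22.9% of the 7293 genes. At least 4-fold lower were 93 of the 150, which are also all the genes with that difference among the 7293 (1.28%), and 18 were at least 8-fold lower (0.247% of the 7293). These counts follow from the choice of genes and nothing is read from them. Together the genes made up 67.0 of every 10000 molecules in stage-7 nuclei and 23.3 in stage-7 cells, against 296.1 in late stage-5 nuclei. Stage-7 cluster 3 (790 nuclei), the rebuilt cluster with the fewest genes per nucleus, held 0.19% of its molecules in these genes, against 0.599% to 1.02% in the other stage-7 clusters. The authors held that their own low-gene cluster of each stage was possibly a pseudocluster and excluded it. The rebuilt clusters with the fewest genes, 3 at stage 7 and 9 at late stage 5, were kept here. Without the cluster with the fewest genes at each stage, 78 of the genes were at least 4-fold lower. The edge of the group was not a gap. The 3 genes just inside it, LOC107452979, LOC107443175 and LOC107445702, had ratios of 3.49, 3.47 and 3.47, and the 3 just outside it, LOC122272440, LOC107454822 and LOC107445145, had 3.45, 3.45 and 3.45.

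**Figure D1:**
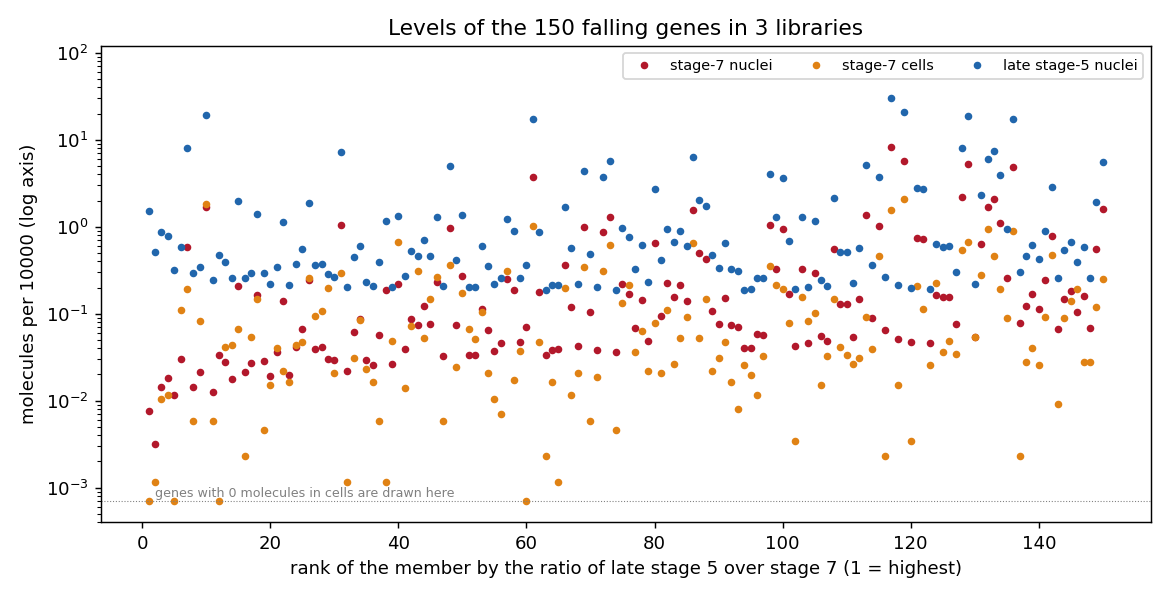
Levels of the 150 genes in order of the ratio of late stage 5 over stage 7, on a log axis of molecules per 10000; each gene has 1 point for stage-7 nuclei (red), stage-7 cells (orange) and late stage-5 nuclei (blue). The late stage-5 levels run from 0.188 to 30.4 and the stage-7 nucleus levels from 0.0032 to 8.26, and high and low genes occur along the whole order.

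The steepest difference belonged to LOC107436211, which encodes KN motif and ankyrin repeat domain-containing protein 2, a relative of the mammalian KANK proteins that link adhesion sites to the cytoskeleton. It had 52 molecules in stage-7 nuclei (0.00756 per 10000, 95% exact Poisson interval 0.00565–0.00992), 0 in stage-7 cells, and 4069 in late stage-5 nuclei (1.52, 1.47–1.57). At late stage 5 it was spread over the whole axis of the embryo, at 1.13 to 2.33 molecules per 10000 in each of 8 stretches of the axis, and at stage 7 no stretch was above 0.0163. These intervals, and all others here, cover counting error only.

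LOC107436213, an unnamed gene, had 0.0032 molecules per 10000 in stage-7 nuclei and 0.509 in late stage-5 nuclei. Sterol carrier protein 2 (LOC107444952), a lipid-transfer protein, had 0.0145 in stage-7 nuclei and 0.865 in late stage-5 nuclei. LOC107456604 had 0.0183 and 0.775. In these genes the late stage-5 molecules were likewise spread, with at most 18.5% of them in any of the 14 clusters into which the late stage-5 nuclei were divided again.

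Of the other genes among the 20 highest ratios, most have no known product. LOC107453535, LOC122270833, LOC107453060, LOC107457331, LOC122273073, LOC122272484, LOC107452371, LOC107446454, LOC122272556 and LOC107438320 had between 0.0116 (LOC107453535) and 0.209 (LOC107452371) molecules per 10000 in stage-7 nuclei, against 0.219 (LOC107438320) to 1.98 (LOC107452371) in late stage-5 nuclei, and no cluster held more than 36.0% of their late stage-5 molecules. The gonadotropin-releasing hormone II receptor (LOC107451864), a receptor coupled to G proteins, had 0.0332 in stage-7 nuclei and 0.472 in late stage-5 nuclei. Of its late stage-5 molecules, 31.6% were in 1 cluster. Late stage-5 levels also differed between clusters or bins in *Pt-BarH1*, LOC107453376, LOC122273323 and trapped in endoderm-1 (LOC107445483). These genes and LOC107443537, which was abundant, follow with their places.

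Of the Notch pathway, the receptor, a ligand and a Hes gene were in the group, and other genes of the pathway were not counted. The ligand gene *Pt-Delta* (LOC107456525) was not in the group, with 0.798 molecules per 10000 in stage-7 nuclei and 1.78 in late stage-5 nuclei. *Pt-Notch* (LOC107442769) had 33400 molecules in stage-7 nuclei (4.86 per 10000, 4.81–4.91) and 772 in stage-7 cells (0.894), against 46328 in late stage-5 nuclei (17.3, 17.1–17.4), a log2 of stage 7 over late stage 5 of -1.83. *Pt-Delta2* (LOC107438011), a Delta-type ligand, had 0.366 in stage-7 nuclei, 0.199 in stage-7 cells and 1.69 in late stage-5 nuclei. HES-1-A (LOC107444253), a repressor of the Hes family that was picked after its values were seen, had 0.217 in stage-7 nuclei, 0.133 in stage-7 cells and 0.963 in late stage-5 nuclei. That the counting intervals of these 3 genes of the group did not overlap between the stages follows from their choice by ratio. Nothing is read from it.

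Of the Wnt pathway, the ligand *Pt-wnt5* (LOC107447180) had 1.04 molecules per 10000 in stage-7 nuclei (1.02–1.07) and 0.292 in stage-7 cells, against 7.14 in late stage-5 nuclei (7.04–7.25). Genes among the 150 whose relatives act on Wnt signalling were proteoglycan Cow, metalloprotease TIKI2 and *Pt-naked cuticle*, and other such modulators were not counted. Proteoglycan Cow (LOC107445055), whose *Drosophila* namesake binds Wingless outside cells, had 0.977 in stage-7 nuclei and 4.94 in late stage-5 nuclei. Metalloprotease TIKI2 (LOC107443668), whose vertebrate relatives cleave Wnt proteins, had 0.179 in stage-7 nuclei and 0.86 in late stage-5 nuclei. *Pt-naked cuticle* (LOC107453313), an intracellular inhibitor of Wnt signalling in *Drosophila*, had 0.0903 in stage-7 nuclei and 0.36 in late stage-5 nuclei. Over a list of 28 ligands, receptors and modulators of developmental signalling collected by product name, 11 were at least 2-fold lower at stage 7 and 3 at least 2-fold higher, with a median log2 of -0.74 beside -0.53 over all 7293 genes, and *Pt-wnt5* and *Pt-Notch* were the only ones of the list among the 150. The search by name did not pick up *Pt-Delta2*, Cow, TIKI2 and *Pt-naked cuticle*.

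Several transcription factors of early patterning were in the group. *Pt-BarH1* (LOC107456035), a homeobox gene of the Bar family, had 4042 molecules in stage-7 nuclei (0.588 per 10000, 0.57–0.606), 168 in stage-7 cells (0.194) and 21647 in late stage-5 nuclei (8.08, 7.97–8.18). *Pt-otd* (LOC107457189), a head gene, had 0.987 in stage-7 nuclei, 0.341 in stage-7 cells and 4.33 in late stage-5 nuclei. *Pt-dll* (LOC107450100), the Distal-less gene, had 0.862, 0.312 and 3.77 in the same libraries. The spalt-type zinc finger gene sal-like protein 1 (LOC107450899) had 5.2 in stage-7 nuclei, 0.669 in stage-7 cells and 18.7 in late stage-5 nuclei. All 4 were patterned along the axis at late stage 5.

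The Paired-type genes differed in level but not in direction. *Pt-prd1* (LOC107436125) had 0.0294 molecules per 10000 in stage-7 nuclei and 0.232 in late stage-5 nuclei, and *Pt-prd2* (LOC107445228) had 0.792 and 2.83. *Pt-ets21c* (LOC107451332), an ETS-family gene, had 0.139 in stage-7 nuclei and 1.13 in late stage-5 nuclei. SOX-8 (LOC107444744), an HMG-box factor, had 0.186 in stage-7 nuclei and 0.901 in late stage-5 nuclei, with 15 molecules in stage-7 cells. Of 53 other DNA-binding transcription factors listed by product name, 5 (*Pt-BarH1*, SOX-8, *Pt-otd*, *Pt-dll* and HES-1-A) were among the 150, 22 were at least 2-fold lower at stage 7 and 7 at least 2-fold higher, with a median log2 of -0.77, beside 22.9%, 8.75% and -0.53 over all 7293 genes. Of 27 genes whose product name contains zinc finger, a search that misses sal-like protein 1, none was among the 150, 5 were at least 2-fold lower and 5 at least 2-fold higher.

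**Figure D2:**
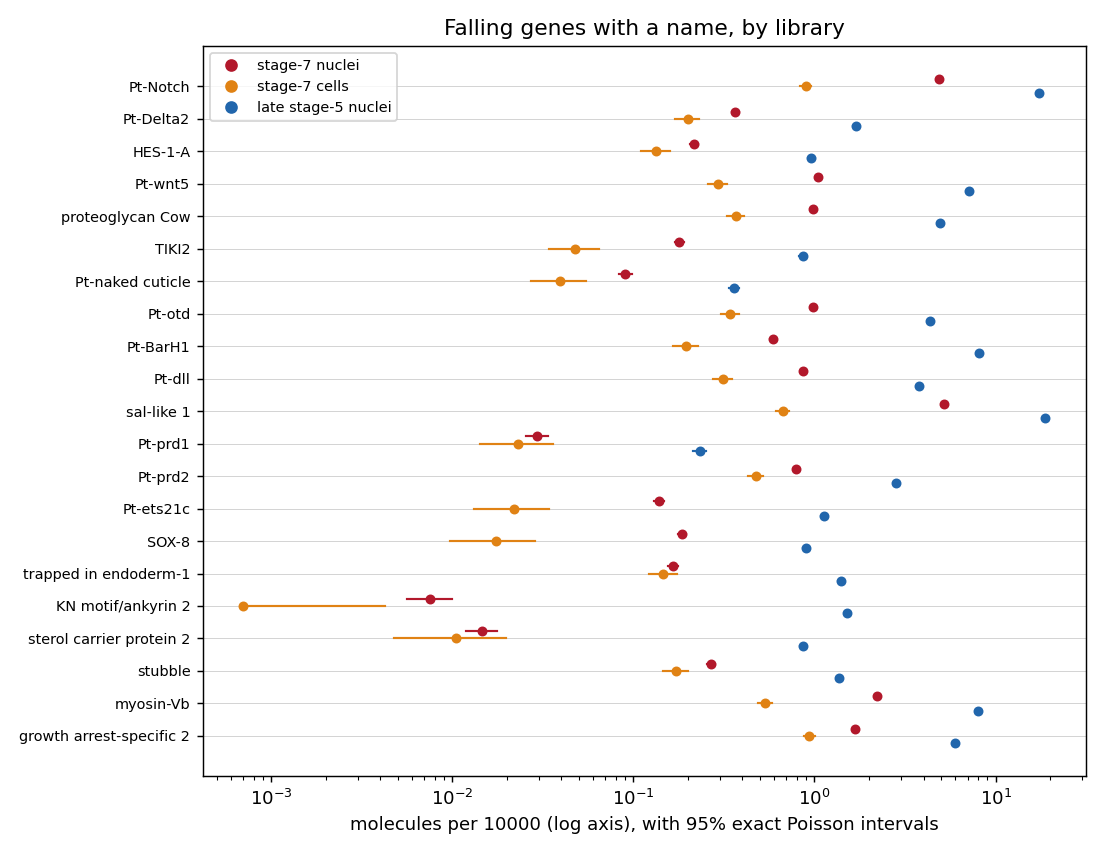
Molecules per 10000 (log axis) of 21 named genes in stage-7 nuclei (red), stage-7 cells (orange) and late stage-5 nuclei (blue), with 95% exact Poisson intervals. In every gene shown the point for late stage-5 nuclei is highest and that for stage-7 cells lowest, with overlapping intervals of cells and stage-7 nuclei in *Pt-prd1*, trapped in endoderm-1 and sterol carrier protein 2; KN motif and ankyrin repeat domain-containing protein 2 had 0 molecules in cells and is drawn as the leftmost point.

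Proteins of the cytoskeleton and of the cell surface were also present. Unconventional myosin-Vb (LOC107445694), an actin motor of membrane traffic, had 2.23 molecules per 10000 in stage-7 nuclei and 8.03 in late stage-5 nuclei. Growth arrest-specific protein 2 (LOC107438242), which bridges actin and microtubules, had 1.67 and 5.97. Serine proteinase stubble (LOC107449498), a membrane-bound protease of limb and wing shaping in *Drosophila*, had 0.268 in stage-7 nuclei and 1.37 in late stage-5 nuclei. Trapped in endoderm-1 (LOC107445483), named after a *Drosophila* receptor needed for germ cell migration, had 0.166 in stage-7 nuclei and 1.4 in late stage-5 nuclei. Some lists by product name had no gene in the group. Over all 7293 genes 8.75% were at least 2-fold higher at stage 7 and 22.9% at least 2-fold lower. Among 28 genes of the ribosome and translation 13 were at least 2-fold higher and 1 at least 2-fold lower, and among 23 of the cell cycle 3 were in each direction.

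To place the genes, levels were computed over nuclei that the authors had listed with a position along the anterior–posterior axis. They had kept those near the axis curve, 1387 at stage 7 and 1140 at late stage 5. The stage-7 axis was built from ectoderm nuclei, and the late stage-5 axis from ectoderm, mesoderm and extraembryonic nuclei. The anterior end of the late stage-5 axis was set by *Pt-twist*, and nuclei near that end without *Pt-twist* were left out. The range of positions was divided into 8 equal bins, numbered from the anterior end, with 134 to 214 nuclei per bin at stage 7 and 113 to 193 at late stage 5. Over the whole axis, 145 of the 150 genes were at least 2-fold lower at stage 7, beside 19.5% of the 7293 genes. These nuclei are part of those that chose the genes, so the count adds no independent evidence.

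At late stage 5, *Pt-otd* had 18.6 molecules per 10000 in bin 2, 25.1 in bin 3 and 9.18 in bin 4, and at stage 7 its highest values were 7.87 in bin 2 and 2.16 in bin 3. The highest level was in bin 3 at late stage 5 and in bin 2 at stage 7, where it was lower. Since the axes differ in germ layers and in the marker of the anterior end, this is not read as a shift in position. *Pt-BarH1* was highest in bin 4 at both stages, with 4.37 at stage 7 and 24.9 at late stage 5, and at stage 7 it was above 0.1 only there and in bin 3 (2.45). *Pt-wnt5* had 2.69 in bin 2 and 2.78 in bin 8 at stage 7, against 12.7 and 25.6 at late stage 5, and it was at most 0.262 in bins 3 to 5 at stage 7. In bin 1 it was higher at stage 7, at 2.11, against 1.19 at late stage 5. *Pt-BarH1* thus had the same highest bin at both stages. *Pt-wnt5* did too, but its stage-7 values in bins 2 and 8 were nearly equal. Such a bin is a relative place on each axis and need not hold the same cells, and the anterior end at late stage 5 includes mesoderm nuclei.

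In other genes the domains differed unequally. Sal-like protein 1 had 2 maxima at late stage 5, of 29.1 in bin 3 and 51.4 in bin 8. At stage 7 it had 11.1 in bin 3 and 3.15 in bin 8, so the bin that was higher of these at late stage 5 was the lower at stage 7. *Pt-prd2* had 5.56 in bin 1 and 17.3 in bin 8 at late stage 5, and 0.0297 and 2.19 in the same bins at stage 7. *Pt-Delta2* had 4.69 in bin 2 and 2.14 in bin 8 at late stage 5, whereas no bin was above 0.614 at stage 7. HES-1-A had 1.95 in bin 2 and 5.1 in bin 8 at late stage 5, and its highest stage-7 value was 0.766, in bin 7. Both genes of the Notch pathway were low between these ends at late stage 5, at 0.0996 and 0.171 in bin 4. Trapped in endoderm-1 had 9.29 in bin 1 at late stage 5 and at most 0.0705 in any bin at stage 7. The stage-7 axis, however, held no nuclei of stage-7 clusters 6 and 8, which had the highest *Pt-twist* levels of that stage (1.32 and 2.96). In cluster 8 trapped in endoderm-1 had 1.47, against 9.43 in late stage-5 cluster 7 and 9.89 in late stage-5 cluster 12. *Pt-prd2* likewise had 3.08 in stage-7 cluster 6 and 1.25 in cluster 8, against 5.14 in late stage-5 cluster 7. Late stage-5 cluster 7, which supplied 235 of the late stage-5 axis nuclei, held the highest *Pt-twist* level of that stage (1.05). The anterior end of that axis was chosen by this mesoderm marker, whereas the stage-7 axis was built from ectoderm. Values of bin 1 therefore do not compare ectoderm alone between the stages. The part of the mesoderm nuclei in the values of bin 1 was not tested.

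**Figure D3:**
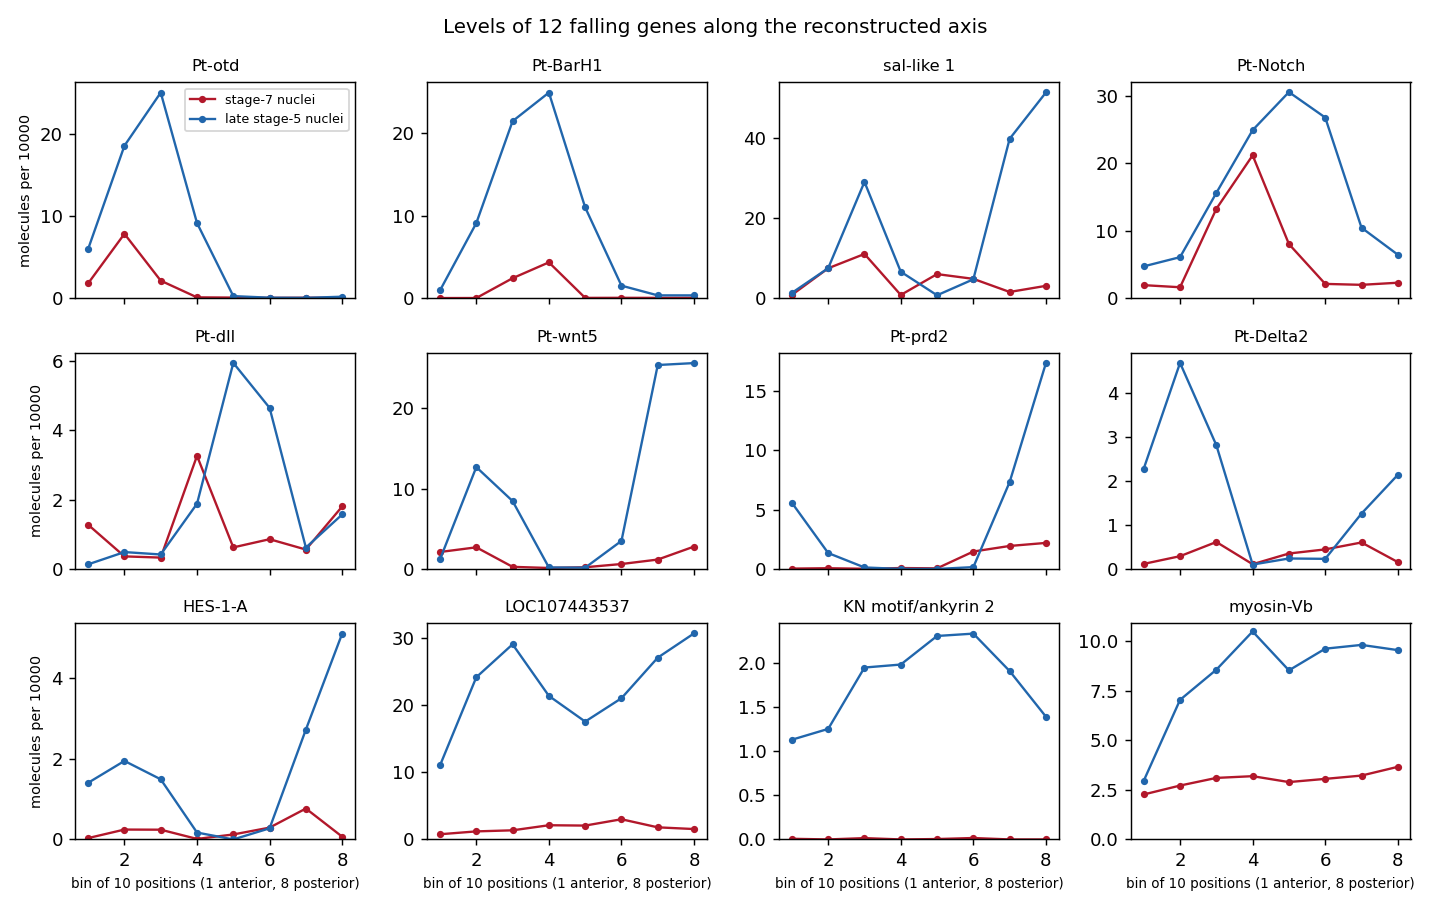
Molecules per 10000 of 12 of the genes in 8 bins along the anterior–posterior axis, in stage-7 nuclei (red) and late stage-5 nuclei (blue); each panel has its own linear axis from 0. *Pt-otd*, *Pt-BarH1* and *Pt-Notch* have a single region at stage 7, the posterior values of sal-like protein 1 and *Pt-prd2* and the anterior ones of *Pt-Delta2* are far lower than at late stage 5, and LOC107443537, KN motif and ankyrin repeat domain-containing protein 2 and myosin-Vb are lower at stage 7 in every bin.

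*Pt-Notch* and *Pt-dll* had the smallest differences in their highest bin. *Pt-Notch* had 21.2 in bin 4 at stage 7 and 30.5 in bin 5 at late stage 5, a log2 of stage 7 over late stage 5 of -0.53, while the whole axis gave -1.25. At late stage 5 it was between 4.75 and 30.5 in every bin, and at stage 7 it was between 1.66 and 2.33 outside bins 3 to 5. *Pt-dll* had 3.26 in bin 4 at stage 7 and 5.94 in bin 5 at late stage 5. It was higher at stage 7 than at late stage 5 in bin 1 (1.27 and 0.133) and in bin 8 (1.8 and 1.57). Of the 138 genes with 100 or more molecules in the late stage-5 axis nuclei, these 2 were the only ones whose highest bin was less than 2-fold lower. Over all 150 genes the median log2 of the highest bin was -1.98, and over all 7293 genes it was -0.55. *Pt-dll* also had many molecules off the axis: its highest stage-7 cluster had 2.11 molecules per 10000, against 13.5 in late stage-5 cluster 5, which held 26.5% of its late stage-5 molecules and 1 axis nucleus among 358.

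**Figure D4:**
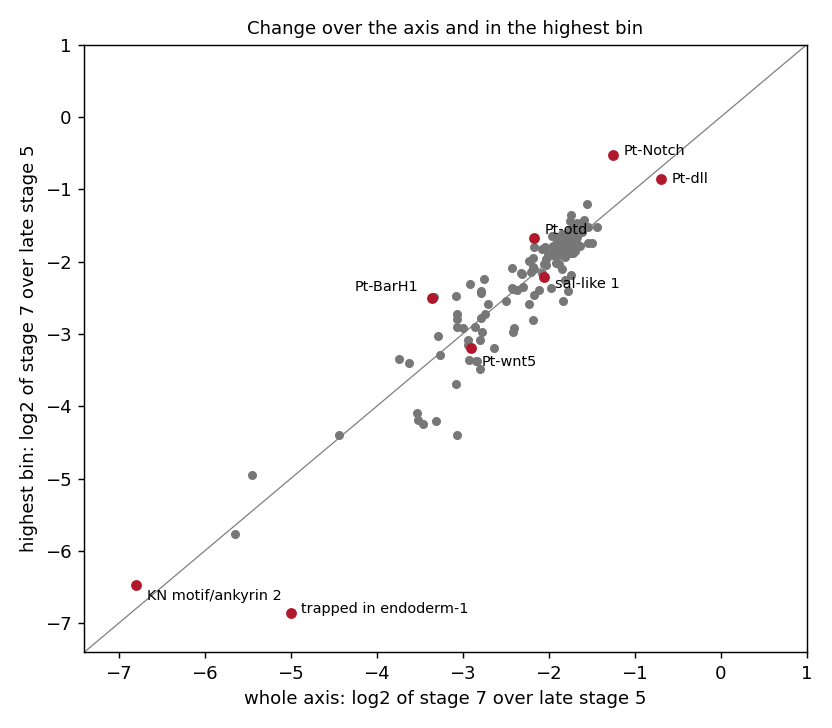
Log2 of stage 7 over late stage 5 in the highest of the 8 axis bins (vertical) against that over the whole axis (horizontal) for the 138 genes with 100 or more molecules in late stage-5 axis nuclei; the line marks equal change. *Pt-Notch* lies above the line at -1.25 and -0.53, and trapped in endoderm-1 lies below it at -4.99 and -6.85.

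Rebuilt clusters gave the place of genes outside the axis nuclei. Of the 150 genes, 10 had 50% or more of their late stage-5 molecules in 1 of the 14 clusters, beside 2.19% of the 7293 genes, and 111 (74.0%) had under 20% in any cluster, beside 93.0% of the 7293 genes. Among the 10, 7 were concentrated in cluster 11 (203 nuclei), 2 in cluster 1 and 1 in cluster 13. Cluster 11 held the highest late stage-5 levels of the endoderm markers At_eW_012_A08 (41.6), LOC107436131 (3.38) and LOC107443634 (20.1). Of all 7293 genes, 160 passed the same limit and 143 of these did so in cluster 11, so the place is the common one for concentrated genes.

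The 7 genes of cluster 11 were LOC107447044, LOC107450284, LOC107447041, LOC107451183, LOC122271872, LOC107457271 and LOC122273323. Of these, LOC107451183, LOC122271872 and LOC107457271 were named after their values were seen, to complete the count. They had 62.8% to 88.8% of their late stage-5 molecules there. Over all nuclei they had 0.0198 to 0.0942 molecules per 10000 at stage 7 and 0.216 to 0.417 at late stage 5. At stage 7 all 7 were highest in cluster 9 (236 nuclei), which held the highest stage-7 levels of At_eW_012_A08 (23.1) and LOC107436131 (2.33). LOC107443634, the other marker of late stage-5 cluster 11, was highest in stage-7 cluster 7 (26.4) and had 6.38 in cluster 9, so the clusters of the stages match in only some of the markers. LOC107447044 had 0.375 molecules per 10000 in cluster 9 at stage 7 and 3.91 in cluster 11 at late stage 5. LOC107447041 had 0.126 and 2.73 in the same clusters. LOC107451183 had 0.942 and 4.48, and LOC122271872 had 1.28 and 3.2. LOC122273323 had 0.198 and 2.69, and its level was higher still in late stage-5 cluster 13, at 5.75. The levels of all 7 genes were lower in stage-7 cluster 9 than in late stage-5 cluster 11, and these need not be the same kind of nuclei.

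LOC107453376 marked another cell population. It had 80.9% of its 792 late stage-5 molecules in the 25 nuclei of cluster 13, at 36.5 molecules per 10000, and this was also the cluster with the most *Pt-ets4* (36.6), a marker of the cumulus mesenchymal cells that move under the germ disc. No other gene of the 7293 had 50% or more of its molecules there. After thinning, 95.8% of the 24 nuclei left in cluster 13 had a molecule, against at most 2.67% in any other late stage-5 cluster. At stage 7 it had 100 molecules in 6239 nuclei and no cluster above 0.0441 per 10000. The highest *Pt-ets4* level of any stage-7 cluster was 0.633, in cluster 1, so no rebuilt stage-7 cluster matched cluster 13. The stage-7 values therefore do not show a change within that population. The nucleus with the most molecules supplied 15.0% of the late stage-5 total, and without it 77.6% remained in the cluster.

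SOX-8 and *Pt-otd* had 76.6% and 64.8% of their late stage-5 molecules in cluster 1, whose *Pt-hh* level was 40.5. SOX-8 had 5.63 molecules per 10000 in that cluster and at most 0.653 in any stage-7 cluster, and *Pt-otd* had 22.9 there and 5.63 in stage-7 cluster 5. *Pt-Delta2* was highest in cluster 11 at late stage 5, at 11.2, and in cluster 8 at stage 7, at 1.73. In their highest cluster at each stage, 141 of the 150 genes were at least 2-fold lower at stage 7, beside 23.8% of the 7293 genes. These nuclei chose the genes, so the count adds no independent evidence. The clusters were also coarser at stage 7 (resolution 0.5) than at late stage 5 (1.4). At stage 7, 45 of the 150 genes and 27.0% of the 7293 were highest in cluster 9, a share near the background.

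**Figure D5:**
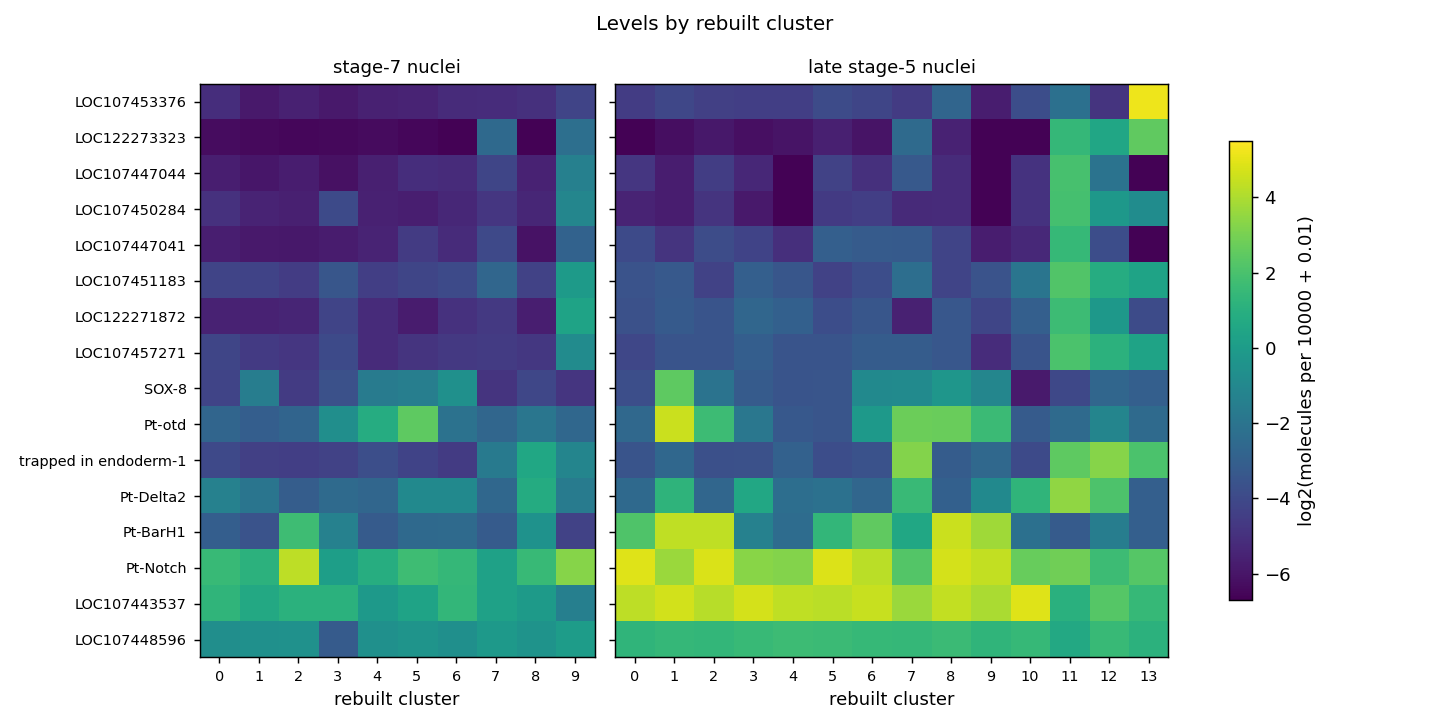
Colour shows log2 of molecules per 10000 plus 0.01 for 16 of the genes (rows) in the 10 rebuilt clusters of stage-7 nuclei (left) and the 14 of late stage-5 nuclei (right); cluster numbers of the stages are unrelated. LOC107453376 stands out in late stage-5 cluster 13, the 7 genes below it have raised levels in cluster 11 and, more weakly, in stage-7 cluster 9, while LOC107443537 and LOC107448596 are spread over all late stage-5 clusters.

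The share of nuclei with a molecule, and the molecules in each of those, follow the levels that chose the genes and are a description of them. After each nucleus was thinned at random to 3000 molecules, which left out 223 late stage-5 nuclei and no stage-7 nucleus, the share of nuclei with a molecule was lower at stage 7 for all 150 genes, beside 68.5% of the 7293 genes, with medians of 2.85% at stage 7 and 12.5% at late stage 5, against 13.8% and 15.5% over the 7293. Without thinning it was lower for 149, beside 24.3%. The mean number of molecules in thinned nuclei that had any was lower for all 150 as well, beside 82.6% of the 7293, with medians of 1.07 at stage 7 and 1.31 at late stage 5. These means are close to 1, so for most of the genes fewer nuclei using a gene and less RNA in each nucleus cannot be told apart. At stage 7, 4 of the genes were found in 50% or more of the thinned nuclei (9.21% of the 7293), and at late stage 5, 20 were (10.4%).

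*Pt-Notch* was found in 51.7% of thinned nuclei at stage 7 (exact binomial interval 50.5–53.0) and in 86.6% at late stage 5 (85.6–87.6), and in 79.2% and 91.8% without thinning. Within its highest cluster it was found in 96.9% of thinned nuclei at stage 7 (cluster 2) and in 98.8% at late stage 5 (cluster 0), and its mean where found was 2.9 molecules at stage 7 and 6.07 at late stage 5 over all nuclei. *Pt-BarH1* was found in 8.14% of thinned nuclei at stage 7 and 41.7% at late stage 5 (15.6% and 45.1% without thinning). In the clusters with the most At_eW_012_A08 it was found in 1.69% at stage 7 (cluster 9, median depth before thinning 13802) and 3.0% at late stage 5 (cluster 11, 7967), which is taken as the background, whereas stage-7 cluster 2 had 33.5% and late stage-5 cluster 8 had 94.4%. *Pt-otd* was found in 15.0% of thinned nuclei at stage 7 and 27.0% at late stage 5, with 65.1% in stage-7 cluster 5 and 97.4% in late stage-5 cluster 1, and in the clusters with the most At_eW_012_A08 it was found in 4.24% at stage 7 and 5.0% at late stage 5.

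Of the genes with the 5 highest late stage-5 levels, sal-like protein 1 (18.7) was patterned, and the others were broad. At late stage 5 it was found in 25.3% of thinned nuclei in cluster 0 and in 98.0% in cluster 11. LOC107440180 had 8.26 molecules per 10000 in stage-7 nuclei and 30.4 in late stage-5 nuclei, and was found in 78.7% of thinned nuclei at stage 7 and 98.1% at late stage 5. LOC107449282 had 5.75 and 21.1, and LOC122273015 had 3.75 and 17.3. LOC107443537, a gene of unknown function, had the highest ratio of the abundant ones, at 1.69 in stage-7 nuclei (1.66–1.72), 1.81 in stage-7 cells (1.72–1.9) and 19.3 in late stage-5 nuclei (19.2–19.5). It was found in 35.0% of thinned nuclei at stage 7 and 90.6% at late stage 5, and in late stage-5 clusters 11 and 13 it was found in 35.5% and 37.5%, in cluster 12, which also carries endoderm markers (At_eW_012_A08 18.3), in 59.3%, and in every other late stage-5 cluster in 79.0% or more. The 5 most evenly spread genes, LOC122273006, LOC107452979, LOC107437214, LOC107448596 and LOC122273307, had 12.1% to 12.4% of their late stage-5 molecules in any 1 cluster, beside a median of 13.3% over the 7293 genes.

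Stage-7 cells are a library that did not enter the choice of the genes, although the late stage-5 side of the comparison did. In stage-7 cells, 146 of the 150 genes were at least 2-fold lower than in late stage-5 nuclei, beside 57.2% of the 7293 genes, and 134 were at least 4-fold lower, beside 33.8%. The median log2 of cells over late stage-5 nuclei was -3.40 for the 150 genes and -1.31 for all 7293. Reads in introns were counted in nuclei only, so cells and nuclei differ in material as well as in stage. With cell levels rescaled to the median of all genes, 132 of the 150 and 28.4% of the 7293 were at least 2-fold lower. The library of cells also differed in makeup: At_eW_012_A08 had 0.218 molecules per 10000 in stage-7 cells and 2.28 in stage-7 nuclei, against 3.89 in late stage-5 nuclei, so low values in cells of the genes concentrated in cluster 11 go with few endoderm marker molecules, whose part was not tested.

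KN motif and ankyrin repeat domain-containing protein 2, LOC107453535, the gonadotropin-releasing hormone II receptor and LOC122273006 had 0 molecules in stage-7 cells, and the limit used here for a count of 0 is 3 molecules per library, or 0.00347 per 10000. Against that limit they were at least 437-fold, 92.7-fold, 136-fold and 104-fold lower than in late stage-5 nuclei. A further 10 genes had 1 to 3 molecules in cells. The 4 genes less than 2-fold lower in cells were named after their values were seen. LOC107443319 had 0.03 molecules per 10000 in stage-7 nuclei and 0.198 in stage-7 cells, against 0.285 in late stage-5 nuclei. LOC107455690 had 0.0739, 0.31 and 0.456 in the same libraries. LOC107441844 had 0.219, 0.663 and 1.32, and LOC107456869 had 0.104, 0.192 and 0.39. In these genes the level in stage-7 cells lay between those of stage-7 nuclei and late stage-5 nuclei. The embryos of the cell library were also slightly younger by the authors' staging, and the part of this age difference was not tested. Cells were above stage-7 nuclei for 24 of the 150 genes, beside 20.3% of the 7293.

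The genes shared features of annotation that the choice did not use. Of the 150, 51 (34.0%) had identifiers that start with LOC1222, beside 7.61% of the 7293 genes, and over all genes with such identifiers the median log2 of stage 7 over late stage 5 was -1.09, against -0.49 for the rest. In the RefSeq annotation of a later assembly, CAS_Ptep_4.0, 118 of the 150 identifiers and 6787 of the 7293 were found. By its gene classes, 14 of the 150 (9.33%) were lncRNAs, beside 2.45% of the 7293 genes. LOC107447307, the most abundant of these lncRNAs at late stage 5, had 0.241 molecules per 10000 in stage-7 nuclei, 0.258 in stage-7 cells and 1.87 in late stage-5 nuclei, and at late stage 5 it was highest at the ends of the axis, with 5.09 in bin 1 and 3.87 in bin 8. No match was found for 32 of the 150 (21.3%), beside 6.94% of the 7293.

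In that annotation 5 pairs of the genes were immediate neighbours, and those of them that no naming rule picked were named after their values were seen. LOC107447041 and LOC107447044, next to each other, had 76.7% and 88.8% of their late stage-5 molecules in cluster 11. LOC107456345 and LOC122272139 had like levels, 1.31 and 1.56 molecules per 10000 in stage-7 nuclei and 5.66 and 6.35 in late stage-5 nuclei. LOC107443319 and LOC122272556 differed in stage-7 cells, at 0.198 and 0.00463. LOC107453060 and LOC107453053 had 0.0833 and 0.148 in stage-7 cells. LOC122273169 and LOC122273323 overlap, and since the sources used here do not say whether the strand was used in counting, the counts of this pair are uncertain.

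Product names were at hand for 36 of the 150 genes and 1161 of the 7293, and they come from the study's tables of marker and patterned genes. Genes with a *Pt-* name were 10 of the 150 and 69 of the 7293, and of the 69, 32 were at least 2-fold lower at stage 7 and 4 at least 2-fold higher, with a median log2 of -0.90. Of the 264 genes that the study selected along the late stage-5 axis, 243 were among the 7293 and 22 among the 150; of the 213 selected along the stage-7 axis, 135 and 12 were, and these 12 were on both lists. Since the study selected both lists on these libraries, the counts are no independent evidence of direction. Over the 243 genes the median log2 was -0.85 and 105 were at least 2-fold lower, while 13 were at least 2-fold higher. Over all 7293 genes 22.9% were at least 2-fold lower and 8.75% at least 2-fold higher.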

How the data were processed

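The 150 genes, the gene lists and the comparisons were chosen with earlier results of these data known. The authors aligned BD Rhapsody reads to the genome (Ptep_3.0) with STAR 2.5.2b, counted RNA molecules per gene and barcode, with introns included for nuclei, and deposited these counts before and after their filter (Seurat 4.1.1). For late stage-5 nuclei the filter kept more than 1500 genes and fewer than 15000 molecules; rebuilding it left 4819 barcodes, and the deposited table of 4820 was used. Filtered tables leave out genes found in fewer than 2 barcodes, so the cells' counts of such genes were read from the table before the filter. No doublet caller was run here; the authors' limit on molecules was meant to remove doublets.

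Levels are molecules per 10000 with a pseudocount of 0.01 in ratios. Clusters were rebuilt with Seurat 5.3.0 in R 4.3.3 from 2000 variable features, with 45 principal components and resolution 1.4 at late stage 5, and 50 and 0.5 at stage 7. Levels, intervals and thinning were computed in Python (3.11.15; pandas 2.3.3, numpy 2.4.6; scipy 1.17.1 for exact intervals) and tested on simulated data. Positions of nuclei are those the authors listed, rescaled here to 80 units per stage; levels in bins of 10 units came from the counts. Named genes were the 20 highest ratios, the 5 highest levels in each library, the 3 highest of each list, all with a *Pt-* name, the 5 most and 5 least concentrated in 1 cluster, and 3 on each side of the limit. Shares were thinned to 3000 molecules per barcode. No column of the tables was left unmapped to a library, and promoter motifs were not searched.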

Additional observations from a re-analysis of the deposited data

How the results depend on the processing

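With 1 library per stage, no left-out replicate could be tried. No paired analysis was possible because the groups share no replicates. The 150 genes depended on how low levels were treated: with a pseudocount of 0.1, 94 of them remained among the 150 highest ratios, with a minimum of 1000 molecules 93 and with a minimum of 200 molecules 98. The other settings kept between 101 (axis nuclei only) and 149 (without shared barcodes, a setting added after seeing the data). Of the 18 genes at least 8-fold lower, 4 were left with a pseudocount of 0.1, and 30 genes passed with 0.001. Of all genes tested, 93 were at least 4-fold lower, and this count became 158 with all barcodes before the filter, 22 with a pseudocount of 0.1 and 42 with stage-7 levels rescaled to a median ratio of 1. Genes of the 150 with 50% or more of their molecules in 1 cluster numbered 18 at resolution 0.5, against 10. Coarser clusters hold more nuclei, and the share over all genes tested was not computed at that resolution. Nothing is read from this rise. The 50 named genes among the 150 stayed below 0 on the log2 scale in every setting tried for them, which their choice by ratio all but fixed. They lay between -6.79 and -0.28 over axis nuclei only and between -3.91 and -1.11 with a pseudocount of 0.1. The size was less stable. Genes outside the range set by the counting intervals numbered 39 over axis nuclei and 44 with a pseudocount of 0.1. The other settings gave between 0 (without shared barcodes) and 49 (rescaled to a median ratio of 1). The count of the 150 at least 2-fold lower in stage-7 cells lay between 132 and 146. The share of all genes tested moved more, between 28.4% (rescaled to a median ratio of 1) and 57.4% (thinned to 3000 molecules). LOC107436213 rests on 22 molecules at stage 7 and LOC107436211 on 52, and counting intervals do not cover differences between embryos or libraries. The promoter motif search was not run.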
